A study of Rattus norvegicus with 4 samples.

Results

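In the rat oral epithelial line ROE2, 215 genes read within 1.5-fold of day 0 after 3 days at 37 °C and at least 2-fold lower than day 0 after 9 days. They are called the late-lowered genes here. They were chosen by their measured values on days 0, 3 and 9 among 8802 genes whose highest log2 value reached 6, out of 14218 genes with a symbol. Where a gene had several probe sets, the one with the largest 4-day mean was read. The thresholds alone held for 231 genes. Another 16 of them were left out by symbol, among them the cell cycle genes Cdkn2a and Cks1b, the helicase gene Mcm8 and 5 solute carrier genes. Since these values chose the members, they are a description and carry no test.

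ROE2 was derived from the tongue of a fetal rat of the Wistar strain that carried the temperature-sensitive large T antigen gene of SV40, so all 4 groups share this transgene and come from 1 line. The cells grew on collagen type I at 33 °C for 24 h in DMEM/F12 with 2% serum, ITES supplement (insulin, transferrin, ethanolamine and selenite) and 10 ng/ml EGF, and were then kept at 37 °C for 0 days, which the labels call the control, or for 3, 6 or 9 days. Each day was measured on 1 Affymetrix rat expression array, so no difference below has a replicate check or a p-value, and an effect of the day cannot be told apart from one of its array. A gene counts below as lower or higher by size, 2-fold or more between 2 arrays unless another size is given, and the values of different genes are not set against each other because their probes differ.

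Large T antigen binds the tumour suppressors p53 and RB and keeps cells dividing. Its temperature-sensitive form loses function when cells are warmed. In the stratified epithelium of the tongue, dividing basal cells hold to the matrix through actin-linked adhesions, and cells that leave this layer stop dividing, change their surface and matrix contacts and make a cornified or keratin-rich upper layer.

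The line carried the marker genes of its labelled tissue. Of 13 measured genes of stratified oral epithelium 12 were above 6, and the log2 of their summed linear level was 16.17 on day 0 and 16.72 on day 9. All 10 fibroblast markers stayed under 6, and 8 of them, Col1a1, Col1a2 and Col3a1 among them, were at or below the brightest bacterial control probe set on all 4 arrays. The fibroblast level, summed in the same way, lay between 6.86 and 6.97 on the 4 days. Of 11 leukocyte markers 3 were above 6 (Cd14, Cd68 and Laptm5), and 6, including the pan-leukocyte gene Ptprc, were at or below the controls throughout. The summed leukocyte level was 10.85, 10.08, 9.76 and 9.48 on days 0, 3, 6 and 9. Most of it was Cd14, a lipopolysaccharide co-receptor gene, which read 10.66, 9.68, 9.18 and 8.80. The part of this in the late-lowered genes was not tested. None of the 6 endothelial, 8 muscle or 6 melanocyte markers measured was above 6, and their sums stayed between 6.48 and 6.82, 7.13 and 7.33, and 6.90 and 7.13. Of 5 neural markers 2 were above 6, and Snap25 read 5.98, 8.39, 6.47 and 5.30. In RNA from whole cultures, fewer cells that express a gene and less of its RNA per cell cannot be told apart.

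Most of the late-lowered genes were already lower on day 6, a day that the thresholds did not use. On that array all 215 read below day 0, against 62.7% of the 8802 genes, 187 were at least 1.5-fold lower (87%, against 22.9%), and 107 were at least 2-fold lower (49.8%, against 8.08%). The median difference from day 0 was -0.29 on day 3, -1.00 on day 6 and -1.19 on day 9, where the medians of all 8802 genes were -0.05, -0.18 and -0.14. These 3 differences share the day 0 array. The rule used day 0 and day 3, so a high reading there helped a gene to be chosen, and the counts against either day are a description. Between days 3 and 6, 214 of the 215 were lower on day 6, against 65.9% of all genes. In that interval 154 were at least 1.5-fold lower, which is 71.6% against 9.13% of all genes. The median difference from day 3 to day 6 was -0.72 for the members and -0.13 for all genes. The day 3 window did not make day 3 equal to day 0. Of the 215 genes, 167 read below day 0 on day 3, or 77.7%, against 55.8% of all genes.

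The plot of differences over time splits the members at 2-fold on day 6. In 107 genes the day 6 value was at least 2-fold below day 0. Their median was -1.21 on day 6 and -1.29 on day 9, and 63 of them read lower on day 9 than on day 6. The other 108 had medians of -0.78 and -1.13, and all of them read lower on day 9 than on day 6, which the day 9 threshold requires. On day 3, 36 of these 108 lay above day 0, against 12 of the first 107. Of all 215 genes 171 were lowest on day 9 and 44 on day 6, and 123 were lower at each step.

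**Figure D1:**
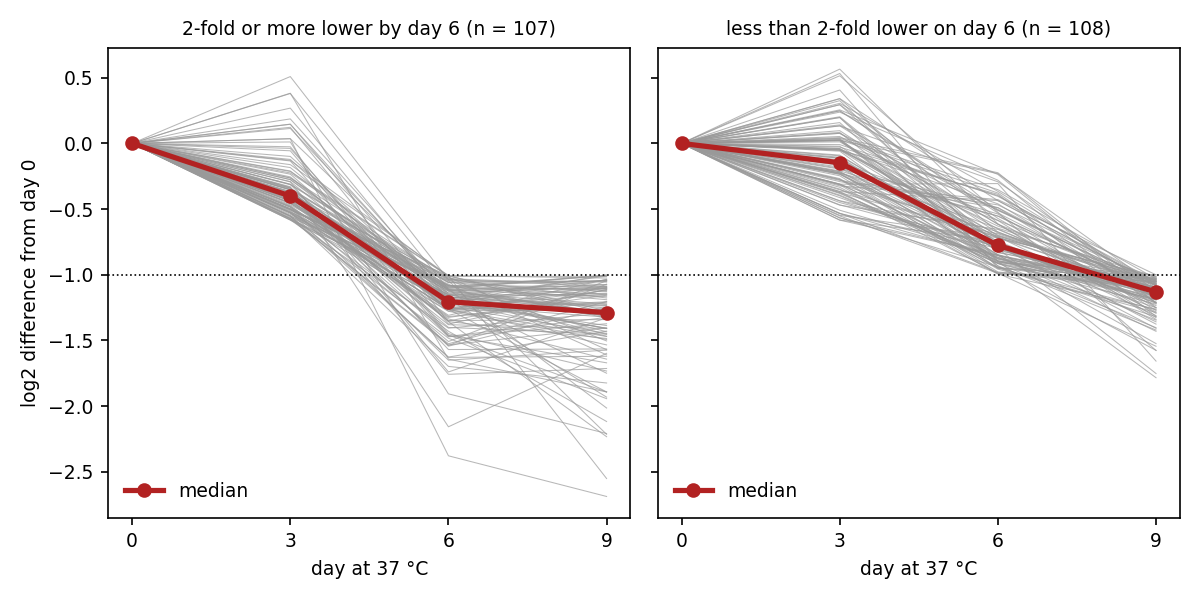
Log2 difference from day 0 (vertical axis) on days 0, 3, 6 and 9 at 37 °C (horizontal axis) for the 107 late-lowered genes at least 2-fold lower on day 6 (left) and the other 108 (right). Grey lines are single genes from 1 array per day, red is their median and the dotted line marks 2-fold; the left median is -1.21 on day 6 and -1.29 on day 9, the right -0.78 and -1.13.

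From day 6 to day 9, 38 members were lower by 1.5-fold or more and 4 by 2-fold or more, against 2.84% and 0.591% of all genes, and 171 were lower by any amount, against 42.1% of all genes. The rule used day 9, so nothing is read from these counts. Those 4 genes were Pdpn, by -1.54, the chromatin reader gene Mllt6, by -1.35, Prtfdc1, by -1.17, and the osteopontin gene Spp1, by -1.05. Mllt6 read 6.99, 6.68, 6.68 and 5.33 on days 0, 3, 6 and 9, so nearly all of its difference lay between the last 2 arrays. The opposite course was that of Snx10, a sorting nexin gene of endosomes, with 6.96, 6.63, 4.80 and 5.36. It was 0.56 higher on day 9 than on day 6, and no member was higher by as much as 1.5-fold.

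**Figure D2:**
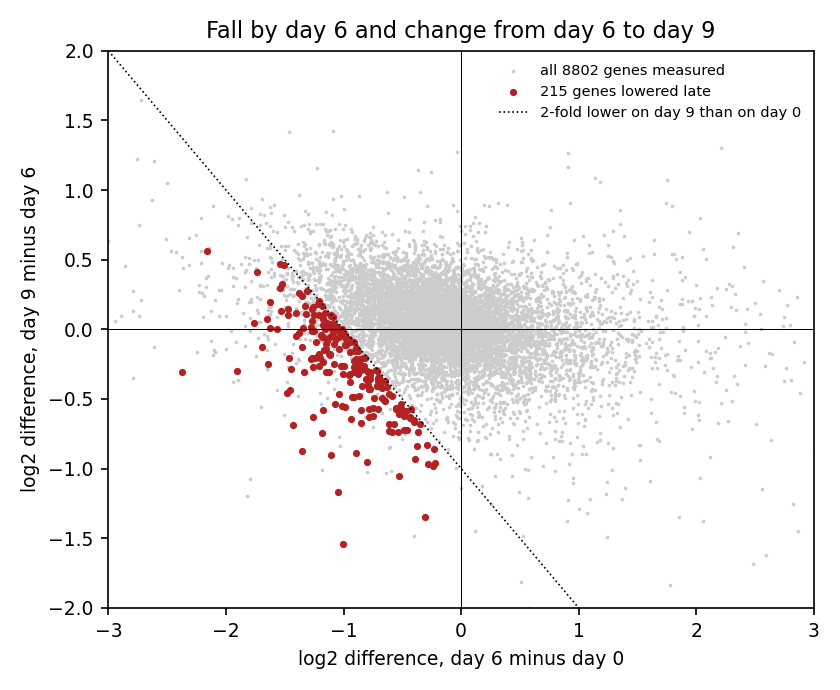
Log2 difference from day 0 to day 6 (horizontal axis) against that from day 6 to day 9 (vertical axis) for all 8802 genes (grey) and the 215 late-lowered genes (red), each point 1 gene from 1 array per day, with 39 genes outside the plotted range. All red points lie left of 0 and, by the rule, below the dotted line that marks 2-fold lower on day 9 than on day 0.

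On day 9, 550 genes were lower than on day 0 (6.25% of 8802), and the 215 members (2.44%) are part of them. Of the rest, 134 were already 2-fold or more lower on day 3 and 170 were between 1.5-fold and 2-fold lower then, while 15 were over 1.5-fold higher on day 3. The genes lowered by day 3 had medians of -1.33, -1.88 and -1.57 on days 3, 6 and 9, and their median difference from day 6 to day 9 was 0.28, where that of the late-lowered genes was -0.27. The mirrored thresholds held for 146 genes raised late, with no symbol left out.

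The differences of the members were mostly small. On day 9, 182 of the 215 were less than 1.5 below day 0 on the log2 scale and 7 were 2 or more below. The members nearest the day 9 threshold were Snrnp70, at -1.00, Tasp1, at -1.00, Mcur1, at -1.00, Shcbp1, at -1.00, and Eif1a, at -1.01. The nearest genes outside were Rnf217, Dzip1l, Rev1 and Etv4, each at -1.00 after rounding, and Cep250, at -0.99. At the day 3 edge Jcad, at -0.58, was inside and Zfp775, at -0.59, outside, and at the upper edge Tpst1, at 0.57, was inside and Serpine2, at 0.67, outside. Serpine2, the gene of the protease inhibitor protease nexin-1, read 10.88, 11.56, 9.70 and 8.68. At the floor Fancb, with 6.01 on day 0, was inside and the non-coding Ftx, with 5.98, outside.

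How many genes met the rule depended on the scaling. There were 151 after the median gene of every array was set equal, 143 of them members, and 1608 with the arrays centred on the hybridisation spike-ins, 162 of them members.

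Promoter sequences from RefSeq (build GRCr8, 250 bases before to 50 after each gene's start) were matched by gene identifier to 172 members, and 43 had no entry. Short motifs were searched on both strands and counted as letters only. Their shares among the members are set against those of the 7424 promoters of genes above the floor and of all 27457 promoters of this length. The Sp1 letters GGGGCGGGG were in 24.4%, against 21.5% and 10.4%, the E-box CACGTG in 12.8%, against 10.3% and 6.65%, and CCAAT in 33.7%, against 38.3% and 37.7%. The E2F letters TTTGGCGC or TTTCCCGC were in 4.65%, against 3.29% and 1.53%. The AP-1 letters TGACTCA were in 2.91%, against 3.62% and 4.53%, the CRE TGACGTCA in 2.33%, against 3.54% and 1.91%, and the TATA letters TATAAA in 4.07%, against 6.16% and 14.3%. The NF-kB letters GGGACTTTC were in 2 members, Usp27x and Ifngr2, or 1.16%, against 0.35% and 0.328%. The STAT letters TTCNNNGAA were in 5.23%, against 6.25% and 8.68%, the interferon response letters AAANNGAAA in 8.72%, against 7.41% and 11.5%, and the TEAD letters CATTCC in 9.88%, against 11% and 13.9%. Apart from the NF-kB letters, which rest on 2 promoters, the members' shares lay near those of the other measured genes. The promoters of members had a median GC content of 63.3%, against 61.3% for measured genes, and both had a median of 22 CpG in 300 bases.

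Repeated matches were counted after the single ones were seen. Of the 11 motifs, 3 were found 3 times in a member's promoter. These were CCAAT in 3 members, or 1.74% against 5.41% of measured genes, Sp1 in 2, or 1.16% against 1.23%, and TEAD in 3, Ccn2, Inf2 and C1r, or 1.74% against 0.0943%. The last share is 7 promoters, these 3 among them, so it rests on few genes. The 3 TEAD promoters are shown because their matches can be seen side by side. TEAD factors are the DNA-binding partners of YAP, and Ccn2 is a classic YAP and TGF-beta target gene. The stretches are shown 5′ to 3′ on the gene's strand, upstream of the start, with the letters CATTCC or their reverse complement in capitals. They lie at chr1:22624681-22624800 on the minus strand for Ccn2, chr6:137470081-137470164 on the plus strand for Inf2 and chr4:159098820-159098981 on the plus strand for C1r.
Ccn2: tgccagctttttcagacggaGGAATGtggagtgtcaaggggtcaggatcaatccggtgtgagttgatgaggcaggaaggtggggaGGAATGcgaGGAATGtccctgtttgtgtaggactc
Inf2: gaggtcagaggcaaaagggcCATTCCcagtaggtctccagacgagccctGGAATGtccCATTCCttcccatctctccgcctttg
C1r: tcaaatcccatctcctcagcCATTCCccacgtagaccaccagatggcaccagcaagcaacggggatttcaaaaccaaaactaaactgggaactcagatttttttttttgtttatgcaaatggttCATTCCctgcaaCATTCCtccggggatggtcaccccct
On days 0, 3, 6 and 9 Ccn2 read 12.31, 11.96, 11.40 and 10.91. The formin gene Inf2 read 9.84, 9.44, 8.93 and 8.65, and C1r, which encodes a protease of the first complement component, read 9.97, 10.05, 9.36 and 8.68. All 3 were lowest on day 9, as were 171 of the 215 members (79.5%), so nothing is read from this.

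Among 5 interferon-linked members, a group put together after the values were seen, 4 had a promoter entry and all 4 held the interferon response letters AAANNGAAA, which were in 7.41% of the promoters of measured genes. Of the 15 members with these letters 11 were outside this group, and nothing is read from a group chosen in this way. In Dtx3l and Pml they lay 12 and 14 bases after the start. In the paralogs Ifitm2 and Ifitm3, which encode membrane proteins that hinder virus entry, they lay upstream at 32 and 43 bases before the start for their first base, as -32 and -43, and the capitals mark them below. The stretches are chr1:205482352-205482400 and chr1:205541773-205541821, both on the minus strand.
Ifitm2: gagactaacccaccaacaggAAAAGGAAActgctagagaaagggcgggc
Ifitm3: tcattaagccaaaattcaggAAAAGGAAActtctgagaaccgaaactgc
The paralogs had the same order of days, lower at each step, as did 123 of the 215 members (57.2%). Ifitm2 read 10.08, 9.97, 9.24 and 8.83 and Ifitm3 12.30, 11.91, 11.41 and 11.11 on days 0, 3, 6 and 9. Dtx3l, an E3 ubiquitin ligase gene of the interferon and DNA damage responses, read 8.59, 8.07, 7.42 and 6.84. Pml, the scaffold gene of nuclear bodies, reached its lowest value on day 6, with 7.61, 7.13, 6.35 and 6.40. Parp10, an ADP-ribosyltransferase gene, read 6.37, 6.50, 5.75 and 5.29. The interferon gamma receptor subunit gene Ifngr2, counted among the receptors below, read 7.85, 7.83, 7.10 and 6.47 and was lowest on day 9. The fixed gene lists named here and below were chosen with earlier results of these data known, so their shares are a description. In the fixed list of interferon response and antigen presentation genes, 8 of 31 above the floor were lower on day 9 and 2 higher (25.8% lower, against 6.25% of all genes), and Dtx3l and Ifitm3 were the 2 lowered late (6.45%, against 2.44%). The GTPase gene Gbp2 of the same list was already lower on day 3, with 10.35, 7.64, 6.08 and 5.91.

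The members with the lowest day 9 values relative to day 0 had different roles. Tnfrsf26, a receptor gene of the TNF receptor family, read 6.66, 6.70, 4.28 and 3.97 on days 0, 3, 6 and 9. The last value was not above the brightest of 27 bacterial control probe sets, so its day 9 level was at least 4.30-fold lower than day 0. Pdpn, which encodes podoplanin, a mucin-type surface protein found on basal cells of stratified epithelia and on lymphatic vessels, read 10.37, 10.15, 9.36 and 7.82, or 5.86-fold lower on day 9. Day 3 differed from day 0 by -0.21, and day 9 from day 6 by -1.54. F2r, the gene of the thrombin receptor PAR1, read 11.78, 11.90, 10.42 and 9.54, or 4.70-fold lower. Nrn1, the gene of the lipid-anchored neuritin, went from 7.48 and 7.63 to 6.22 and 5.59.

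**Figure D3:**
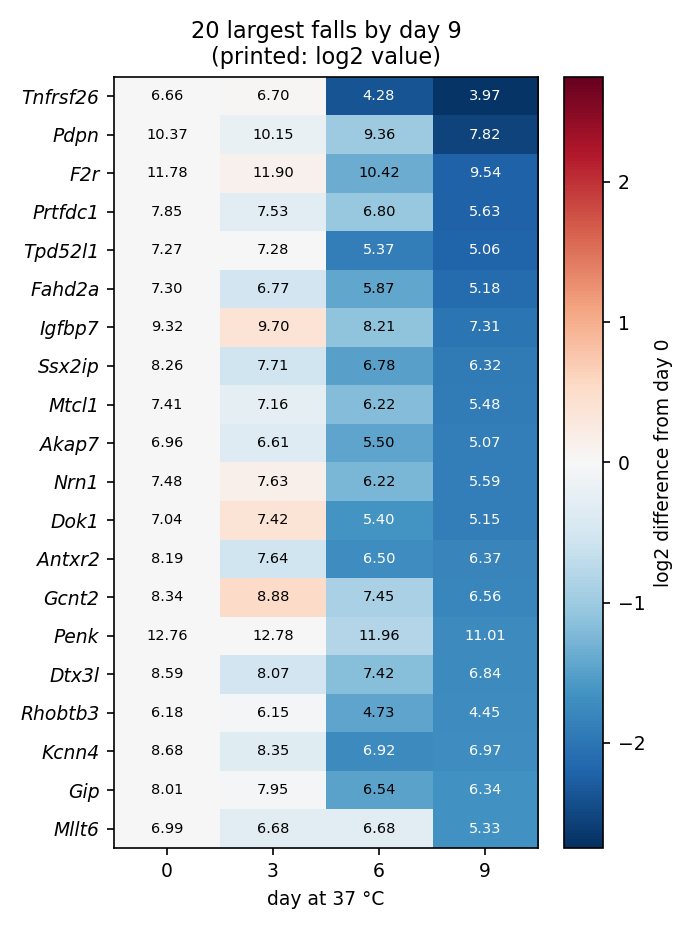
Late-lowered genes with the 20 largest differences between days 0 and 9 (rows) on the 4 days (columns), with the log2 value printed in each cell and the colour showing the log2 difference from day 0, from 1 array per day, where Tnfrsf26 and Rhobtb3 are ranked by values at or below the controls and would stand lower in the order at their bounds of 4.30-fold and 3.08-fold. By the rule the day 3 cells lie within 1.5-fold of day 0, Gcnt2 being the highest at 0.53, and day 9 holds the lowest value in each row but that of Kcnn4, where day 6 does.

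Surface receptors, channels and membrane proteins made up 23 members, 16 of them at least 2-fold lower on day 6, with medians of -1.12 and -1.29 on days 6 and 9. Like the other role groups named here, this one was put together after the values were seen. Antxr2, the gene of an anthrax toxin receptor that binds collagen and laminin, read 8.19, 7.64, 6.50 and 6.37. Kcnn4, which encodes a calcium-activated potassium channel, read 8.68, 8.35, 6.92 and 6.97, and the lipid scramblase gene Ano6 9.83, 9.41, 8.77 and 8.70. Both had reached their day 9 level by day 6 to within 0.07. Cav1, the gene of the caveola coat protein caveolin-1, read 12.56, 12.02, 11.41 and 11.27, and 2 other probe sets for it differed by -1.42 and -1.04 on day 9. Of the heparan sulfate proteoglycan genes, the syndecan Sdc2 read 8.25, 8.15, 7.07 and 7.24 and the glypican Gpc6 7.11, 7.52, 6.16 and 5.85. Gypc, the gene of the membrane skeleton anchor glycophorin C, read 8.97, 9.11, 7.79 and 7.56. In Gpc6 and Gypc day 3 was the highest of the 4 days. Lrp11 and the immune checkpoint gene Cd276 were as low on day 6, at 6.36 and 7.27, as on day 9, at 6.43 and 7.28. The Nogo receptor gene Rtn4r read 6.82, 6.63, 6.03 and 5.41 and the galanin receptor gene Galr2 6.84, 6.50, 5.72 and 5.76. Heg1, a receptor gene of endothelial and heart junctions, was near its day 0 value through day 6, with 7.79, 7.93, 7.50 and 6.67. The other 6 genes of the group, Mxra8 and Ttyh3 among them, lay between -1.47 and -1.08 on day 9.

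Among 14 genes of secreted factors, complement and matrix, 6 were at least 2-fold lower on day 6, and the medians were -0.91 and -1.35. Igfbp7, which encodes an insulin-like growth factor binding protein of the matrix, read 9.32, 9.70, 8.21 and 7.31, a 4.04-fold difference on day 9. Penk, the precursor gene of the enkephalins, read 12.76, 12.78, 11.96 and 11.01, with 0.02 between the first 2 arrays and -0.95 between the last 2. Spp1 was above day 0 on day 3, with 6.65, 7.16, 6.12 and 5.07. The complement protease genes C1r and C1s lie next to each other in the genome. C1s read 10.58, 10.43, 9.80 and 9.37, beside the C1r values above, and on day 9 C1s differed by -1.22 and C1r by -1.29. Of all 215 members 182 lay between -1.5 and -1 on day 9, so nothing is read from how close these values are. F10, the coagulation factor X gene, was lowest on day 6, with 7.48, 6.93, 5.85 and 6.05. Gip, named for an incretin hormone, read 8.01, 7.95, 6.54 and 6.34 from a probe set whose ID marks possible cross-hybridisation. Of the matrix genes Nid2 (nidogen-2 of basement membranes) read 7.21, 6.63, 6.06 and 5.76, and Thbs2 (thrombospondin-2) 6.28, 6.24, 5.56 and 5.26. Tslp, the gene of an epithelial cytokine that acts on dendritic cells, read 6.06, 6.18, 4.91 and 5.02. In the fixed list of matrix genes 8 of 29 were lower on day 9 (27.6%, against 6.25% of all genes), and Nid2 was the 1 lowered late (3.45%, near the 2.44% of all genes).

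Some members are genes of TGF-beta and BMP signalling. Smad3, the gene of the transcription factor that carries the TGF-beta signal to the nucleus, read 9.25, 8.99, 8.30 and 7.97. Bambi, which encodes a pseudoreceptor that blunts the signal, read 6.61, 6.52, 5.80 and 5.59. Id3, a target of BMP signalling whose product holds back differentiation factors of the helix-loop-helix class, read 10.83, 10.78, 10.45 and 9.52, so -0.93 of its -1.32 lay between days 6 and 9. Together with Ccn2 these were 4 of the 5 genes lower on day 9 in the fixed list of 37 TGF-beta, BMP and YAP response genes above the floor. In that list 2 were higher, Bmpr2 at 1.22 and Nog at 1.24. Those lower were 13.5% of the list, against 6.25% of all genes, and those lowered late 10.8%, against 2.44%. As the list was chosen with earlier results of these data known, these shares are a description. The list's median was -0.27 on day 9. The fifth gene lower on day 9 was Pmepa1, with 10.87, 6.04, 8.37 and 9.42, lowest on day 3. Ltbp1 met the thresholds but was left out by symbol and is not on the list. Scx, which encodes the tendon factor scleraxis, read 9.00, 8.63, 8.01 and 7.45, and Dab2, an endocytic adaptor gene of TGF-beta and integrin traffic, 8.91, 9.11, 7.98 and 7.33.

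The 22 intracellular signalling members, Smad3, Bambi, Id3 and Dab2 included, had medians of -0.98 and -1.26 on days 6 and 9, and 11 of them were at least 2-fold lower on day 6. Dok1, an adaptor gene that dampens tyrosine kinase signals, read 7.04, 7.42, 5.40 and 5.15. Akap7, which encodes an anchor of protein kinase A, read 6.96, 6.61, 5.50 and 5.07. Nfatc1, the gene of a calcium-regulated transcription factor, read 7.61, 7.49, 6.40 and 6.14. In each of these the day 3 and day 6 arrays were over 1 apart. Mapk8, the gene of the stress kinase JNK1, read 6.86, 6.64, 6.07 and 5.67, and the RAS family gene Rras2 10.55, 10.04, 9.23 and 9.39. Stk10, a kinase gene linked to lymphocyte adhesion and to the ezrin family, read 9.59, 9.84, 9.35 and 8.37, and so lay within 0.26 of day 0 through day 6. Nek7, a kinase gene of mitosis and the inflammasome, read 11.60, 11.03, 10.43 and 10.46, but a second probe set for it differed by -0.03 on day 9. Anxa5, the gene of the phosphatidylserine-binding annexin A5, read 11.95, 11.82, 10.94 and 10.94. The other 10 genes, Ptp4a3, Rhebl1 and Shcbp1 among them, lay between -1.45 and -1.00 on day 9.

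Cytoskeletal genes formed another group of 24, with medians of -0.93 and -1.19 and 10 members at least 2-fold lower on day 6. Ssx2ip, which encodes a centrosome and adherens junction protein, read 8.26, 7.71, 6.78 and 6.32. Mtcl1, a microtubule crosslinker gene, read 7.41, 7.16, 6.22 and 5.48, and Dbn1, the gene of the actin binder drebrin, 8.38, 7.81, 7.11 and 6.89. These differed by 3.85-fold, 3.81-fold and 2.81-fold on day 9. Rhobtb3 reached 4.45, at or below the controls, so it was at least 3.08-fold lower than its day 0 value of 6.18. Rock2, the gene of a kinase that drives actomyosin contraction, read 8.74, 8.56, 8.20 and 7.46, while its other probe sets above 6 differed by -0.65 and -0.40 on day 9. The microtubule-bound exchange factor gene Arhgef2 read 9.10, 9.12, 8.20 and 7.99, the RAC exchange factor gene Dock5 8.50, 8.27, 7.56 and 7.40, and the CDC42 effector gene Cdc42ep1 9.24, 8.86, 8.35 and 8.21.

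Palld, which encodes the stress fibre protein palladin, read 9.01, 8.70, 8.15 and 7.67 and Pdlim1, a gene of an actinin-binding adaptor, 12.21, 11.74, 11.56 and 11.05. They were the 2 late-lowered genes of 60 in the fixed list of actin and focal adhesion genes, in which 11 were lower and 1 higher on day 9 (18.3% lower and 3.33% lowered late, against 6.25% and 2.44% of all genes). The other 9 had been over 1.5-fold lower on day 3, Vim at -2.05 and Lcp1 at -2.83. Micall2, a gene of junction traffic, read 8.76, 8.57, 7.59 and 7.45. Arpin, the gene of an inhibitor of the actin nucleator ARP2/3, read 8.60, 8.08, 7.46 and 7.51. The intraflagellar transport genes Ift57 and Ift81, which serve the primary cilium, differed in course. Ift57 read 9.01, 8.57, 7.98 and 7.72, whereas Ift81 read 7.87, 8.11, 7.59 and 6.62 and was only -0.28 from day 0 on day 6. The centrosome genes Cep70 and Cep85 were at -1.27 and -1.18 on day 9. Myh1, named for a skeletal muscle myosin, cannot be read with confidence. Its chosen probe set carries a cross-hybridisation mark and read 9.94, 10.28, 9.27 and 8.84, while 3 other probe sets differed by -1.46, -1.38 and -0.82 on day 9 and the remaining one by 1.33, and no muscle marker was above 6.

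The 11 members of DNA replication, repair and chromosome segregation had medians of -0.88 and -1.16, with 4 at least 2-fold lower on day 6. Parp1, the gene of the main DNA damage sensor among the poly(ADP-ribose) polymerases, read 10.05, 9.59, 9.27 and 8.70. Supt16h, which encodes a subunit of the histone chaperone FACT, read 9.53, 9.33, 9.04 and 8.31. In both the step from day 6 to day 9 was over 0.5. The homologous recombination genes Xrcc2 and Rad51b read 6.31, 5.76, 5.09 and 4.90, and 6.45, 6.61, 5.55 and 5.29. Fancb, of the Fanconi anaemia core complex, read 6.01, 5.72, 4.75 and 4.91. Ska1 and Mis18a, genes of the kinetochore and of centromere assembly, were above day 0 on day 3 by 0.08 and 0.03 and at -1.04 and -1.14 on day 9. In the fixed lists 2 of 66 replication and repair genes were lower on day 9, Parp1 and Xrcc2, and 2 of 65 mitosis genes, of which 0 were late-lowered. These shares, 3.03% and 3.08%, were under the 6.25% of all genes. The list medians were -0.48 and -0.51. Dut, Mcm8, Cks1b and Ncapd2 met the thresholds but were left out by symbol and are on neither list.

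Of the 9 members in that group with a promoter entry, 2 held the E2F letters, those of Dtl, a gene of the ubiquitin ligase that clears replication licensing factors, and Cdca7, a MYC-linked chromatin gene. In all 8 members held these letters, most of them outside this group (4.65%, against 3.29% of measured genes). The group was put together after the values were seen, so nothing is read from its count. E2F factors, which RB holds in check, drive S phase genes. Both stretches are shown with the letters in capitals, at chr13:105685938-105685985 on the minus strand and chr3:77730238-77730285 on the plus strand, where Cdca7 carries the reverse complement.
Dtl: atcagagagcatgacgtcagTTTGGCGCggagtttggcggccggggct
Cdca7: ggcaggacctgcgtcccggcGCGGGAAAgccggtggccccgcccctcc
Dtl read 9.86, 9.33, 9.06 and 8.70 and Cdca7 9.25, 9.09, 8.24 and 7.92. The related Cdca7l read 7.56, 7.35, 6.44 and 6.46, level between days 6 and 9.

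Metabolic, redox and mitochondrial genes were the most numerous, 33 members with medians of -1.04 and -1.17, of which 18 were at least 2-fold lower on day 6. Prtfdc1, a relative of the purine salvage enzyme HPRT, read 7.85, 7.53, 6.80 and 5.63, or 4.64-fold lower on day 9, and Fahd2a 7.30, 6.77, 5.87 and 5.18, or 4.34-fold. Gpx1, the gene of the abundant selenium-dependent glutathione peroxidase, read 12.34, 11.89, 11.01 and 10.70. Gpx8, an endoplasmic reticulum member of that family, was 0.27 above day 0 on day 3, with 10.31, 10.58, 9.11 and 9.07. The spermine synthase gene Sms read 9.42, 9.05, 8.18 and 7.98, with another probe set at -0.41 on day 9. The one-carbon gene Mthfd1l, of the mitochondrial folate path, stood at 8.76, 8.80 and 8.54 on the first 3 arrays and 7.58 on the last. Umps, which completes UMP synthesis, read 10.50, 9.95, 9.78 and 9.37, and the mitochondrial arginase gene Arg2 6.78, 7.08, 6.00 and 5.70. These 4 were the late-lowered part of 10 genes lower on day 9 in the fixed list of 52 amino acid, one-carbon and ATF4 genes, where 1 was higher and the median was -0.61. Those lower on day 9 were 19.2% of the list and those lowered late 7.69%, against 6.25% and 2.44% of all genes.

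In the same group the lipid genes Fads3 and Acsl4 were at least 2-fold lower on day 6. Fads3, of the fatty acid desaturase cluster, read 9.17, 9.03, 7.70 and 7.80, and Acsl4, whose enzyme activates arachidonic acid, 10.57, 10.23, 9.31 and 9.30. They were 2 of the 6 lower genes among 48 in the fixed cholesterol and fatty acid list. Of this list 12.5% was lower on day 9 and 4.17% lowered late, against 6.25% and 2.44% of all genes. The ceramide synthase gene Cers6 read 7.81, 7.25, 6.82 and 6.71, and was -0.99 from day 0 on day 6. Of the mitochondrial genes, the protease Htra2, which is released in apoptosis, read 9.20, 9.14, 8.27 and 7.78 and the flavoprotein Aifm1 9.91, 9.79, 9.00 and 8.85. With Tnfrsf26 they were 3 of 7 lower genes among 45 in the fixed apoptosis list (15.6% lower on day 9 and 6.67% lowered late, against 6.25% and 2.44%). The inner membrane import gene Timm9 read 9.67, 9.17, 8.36 and 8.64, the complex III assembly gene Bcs1l 8.22, 7.94, 7.10 and 6.93, and the calcium uptake genes Micu3 and Mcur1 were at -1.39 and -1.00 on day 9. Timm9 was the 1 late-lowered gene of 72 in the fixed mitochondrial list, and no other gene of that list was lower on day 9 (1.39%, against 6.25% of all genes). The muscle enolase gene Eno3, at 6.54 on day 0 and 5.29 on day 9, was lowest on day 6, when it differed from day 0 by -1.54.

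Genes of glycan synthesis, secretion and membrane traffic numbered 22, with 11 at least 2-fold lower on day 6 and medians of -1.02 and -1.19. Gcnt2, which builds the branched I antigen on surface glycans, was highest on day 3, with 8.34, 8.88, 7.45 and 6.56, a 3.44-fold difference on day 9. St3gal4, a sialyltransferase gene, read 8.18, 7.68, 7.10 and 6.57, Extl3, which starts heparan sulfate chains, 11.02, 10.54, 9.76 and 9.49, and the core fucosyltransferase gene Fut8 9.43, 9.08, 8.37 and 8.39. These 4 were among 6 lower genes of 71 in the fixed glycosylation, secretion and lysosome list, where 4 were higher. Those lower on day 9 were 8.45% of the list, near the 6.25% of all genes, and those lowered late 5.63%, against 2.44%. Tpst1, which sulfates tyrosines of secreted proteins, was also highest on day 3, with 7.18, 7.75, 6.57 and 5.84. The lysosomal enzyme genes Idua and Arsb, which degrade dermatan sulfate, were at -1.26 and -1.04 on day 9, and another Arsb probe set was at 0.19. Sytl2, a gene of vesicle docking, had its lowest value on day 6, with 6.53, 6.23, 4.79 and 5.20. The golgin gene Gcc2 and Tango2 were -0.40 from day 0 on day 6 and at -1.06 and -1.05 on day 9.

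RNA genes numbered 20, with 9 at least 2-fold lower on day 6 and medians of -0.92 and -1.11. The long non-coding RNA genes Dancr and Pvt1, the first named for its role against differentiation of progenitor cells and the second a neighbour of Myc, read 7.73, 7.20, 6.10 and 6.11, and 10.02, 9.58, 8.67 and 8.68. Both were level between days 6 and 9, each within 0.01. Eif1a, of the translation start complex, read 11.18, 10.68, 10.09 and 10.17, while 3 other probe sets of it above 6 were at -0.56, -0.50 and -0.22 on day 9. The poly(A) binding protein gene Pabpc4 read 11.04, 10.76, 9.86 and 9.93, and another probe set for it was 0.60 higher on day 9. The deadenylase gene Parn read 7.81, 7.84, 7.43 and 6.60 and the splicing gene Snrnp70 10.26, 9.94, 9.83 and 9.26. Msi2, which encodes the progenitor cell RNA binder Musashi-2, read 10.33, 10.35, 10.10 and 9.24 in its chosen probe set. Its 3 other probe sets above 6 differed by -0.20, 0.40 and 1.42 on day 9, the last with 6.70, 6.60, 8.77 and 8.12, so the direction for this gene depends on the probe set. In the fixed translation list 3 of 58 genes were lower on day 9, and 2 of them, Eif1a and Pabpc4, were lowered late. Both shares, 5.17% and 3.45%, lay near the 6.25% and 2.44% of all genes.

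The 12 transcription and chromatin genes had medians of -0.84 on day 6 and -1.09 on day 9, the smallest of the role groups on both days, and 3 of them were at least 2-fold lower on day 6. Beside Mllt6 and Scx, the clock repressor gene Bhlhe41 read 6.86, 6.51, 5.51 and 5.38. Smarca2, which encodes the BRM motor of the SWI/SNF chromatin remodeller, read 8.08, 8.12, 7.73 and 7.05. Sertad4 read 9.70, 9.41, 9.21 and 8.59, and Cdyl2 6.80, 7.14, 6.36 and 5.73, though another Cdyl2 probe set was at 0.16 on day 9. The 7 genes of ubiquitin and protein turnover, among them the ligase gene Trim37, with 7.63, 7.92, 7.06 and 6.38, and the calpain subunit gene Capns1, with 10.73, 10.52, 10.18 and 9.60, had medians of -0.85 and -1.14.

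**Figure D4:**
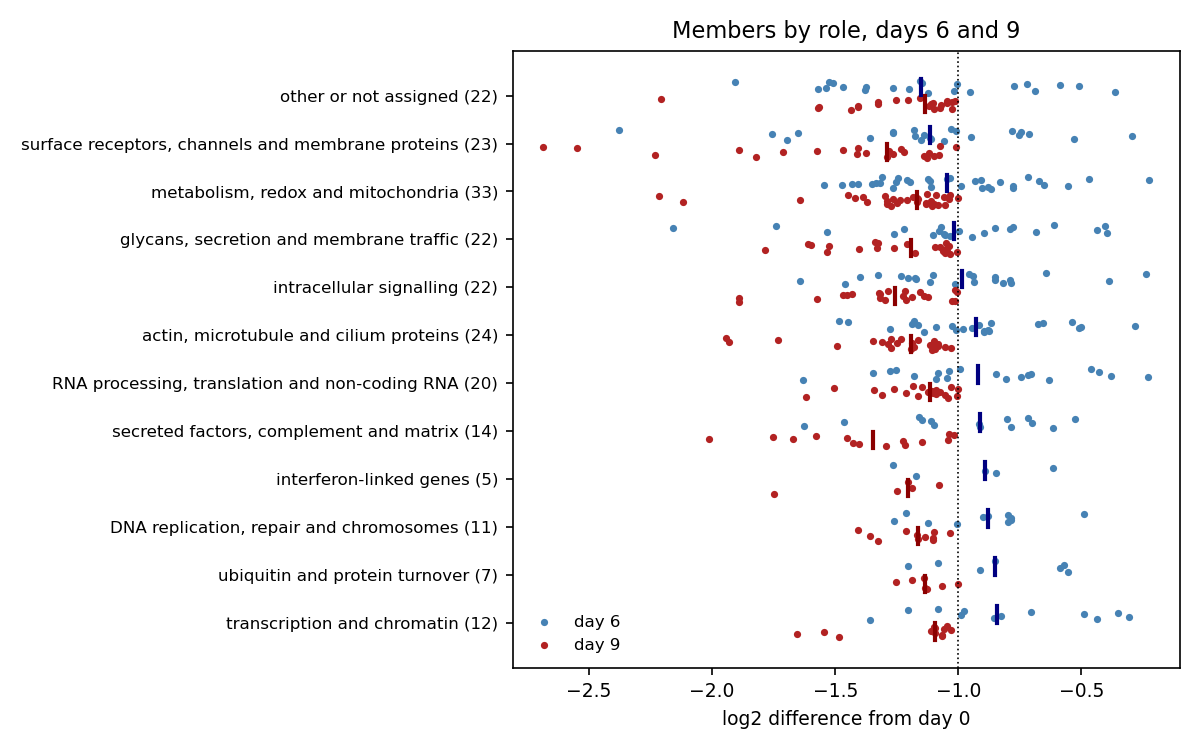
Log2 difference from day 0 (horizontal axis) on day 6 (blue) and day 9 (red) for the 215 late-lowered genes by role (vertical axis, number of genes in brackets), each point 1 gene from 1 array per day, with vertical bars at the medians and a dotted line at 2-fold. Roles were assigned after the values were seen; the day 6 medians run from -1.15 to -0.84 and, by the rule, all day 9 points lie at or left of -1.

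The remaining 22 members were given no role. Tpd52l1, of the tumour protein D52 family, had the largest difference among them, with 7.27, 7.28, 5.37 and 5.06. The aminopeptidase gene Aopep read 8.54, 8.15, 7.52 and 6.97, while Fam184a, with 7.87, 7.56, 6.30 and 6.30, and C19h16orf74, with 9.29, 8.86, 7.91 and 7.88, were level between days 6 and 9. Among them were 5 genes with a LOC symbol. They and the pseudogenes Syncrip-ps2 and Rrs1-ps9 may share sequence with other genes, so their values are uncertain. In all, 13 members were read from a probe set whose ID marks possible cross-hybridisation (6.05%, against 4.51% of all genes above the floor). Among them were Snx10, Spp1, Id3, Dab2, Galr2 and Ifitm3, the last a close paralog of Ifitm2.

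Of the 25 fixed gene lists, 8 held no late-lowered gene, 6 held 1 and 11 held 2 or more, and 40 of the 215 members were in at least 1 list. In the NF-kB and inflammatory list 9 of 34 genes were lower on day 9 (26.5%, against 6.25% of all genes). All 9, among them the chemokine gene Ccl2 and the prostaglandin synthase gene Ptgs2, had been at least 2-fold lower on day 3, so none was lowered late. The lists of EGF receptor and ERK, Wnt and Notch, ribosome biogenesis, mitosis, splicing, chromatin and basal cell genes also held none. In these 7 the genes lower on day 9 numbered 4 of 58, 1 of 30, 3 of 74, 2 of 65, 1 of 79, 1 of 64 and 1 of 37, and those higher 15, 3, 0, 0, 0, 9 and 5, beside 6.25% and 5.57% of all genes. Spry2, Wdr12, Ddx10, Cks1b and Ncapd2 met the thresholds but were left out by symbol. They are not on the EGF receptor, ribosome or mitosis list. The empty lists therefore do not show that these processes had no late-lowered gene. In the ion channel and calcium list 7 of 52 were lower, Kcnn4, Nfatc1, Cav1 and Ano6 among them, and 5 higher. Those lower on day 9 were 13.5% of the list and those lowered late 7.69%, against 6.25% and 2.44%. The axon guidance list held Nrn1 as 1 of 4 lower genes of 26, the glycolysis and hypoxia list Bhlhe41 as 1 of 3 of 40, the redox list Gpx1 as 1 of 2 of 45, and the chaperone list the cyclophilin gene Ppic as its 1 lower gene of 52, with 8.26, 7.81, 7.14 and 6.97. In this order those lowered late were 3.85%, 2.5%, 2.22% and 1.92% of the lists, near the 2.44% of all genes. Those lower on day 9 were 15.4%, 7.5%, 4.44% and 1.92%, against 6.25%.

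Other probe sets of the members read the same RNA on the same arrays at other places in the transcript. There were 104 of them for 72 members, 49 above 6 on at least 1 array. Of these 49, 40 were lower on day 9 than on day 0 (81.6%, against 45.4% of 2700 such probe sets of all measured genes), 25 by 1.5-fold or more and 14 by 2-fold or more (28.6%, against 4.74%), and their median was -0.61. Both day thresholds were met by 9. The probe sets of Cav1, Rras2, Dock5, Mtmr10 and Isoc1 were 2-fold or more lower too, while those of Hddc2, Gas6 and Fam98a, at 0.01, 0.07 and 0.02, did not follow the chosen one. The 55 dim probe sets had a median of -0.05. With the mean over all probe sets of a gene, 157 of the 215 members were at least 2-fold lower on day 9 and 214 were lower by any amount. Only the 72 members with another probe set could change here. For the rest the mean is the chosen probe set, so the rule fixed their result.

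**Figure D5:**
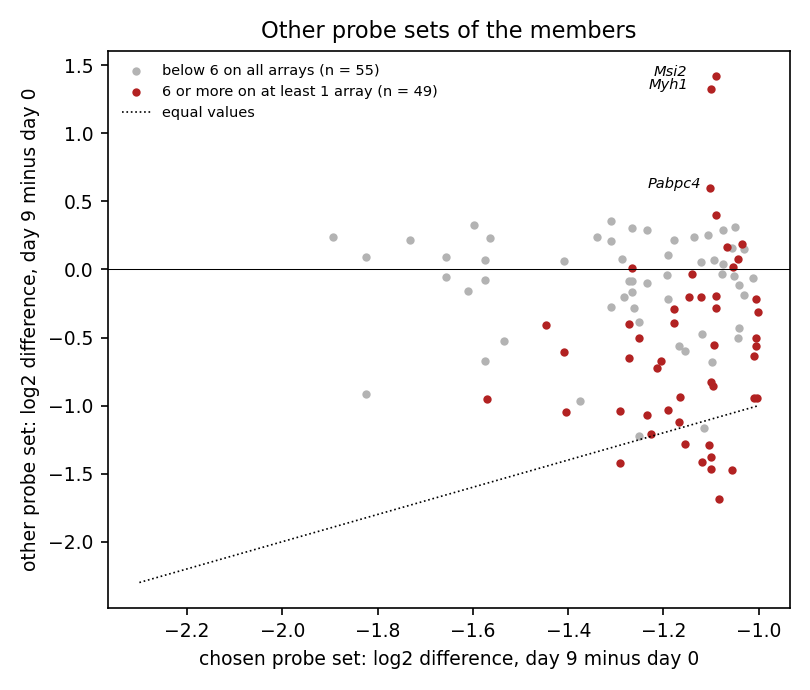
Log2 difference between days 9 and 0 in the chosen probe set (horizontal axis) and in each other probe set (vertical axis) of the late-lowered genes, for 49 probe sets at 6 or more on at least 1 array (red) and 55 below 6 on all arrays (grey), from 1 array per day. Of the red points 40 lie below 0 and 14 at or below -1, and the highest are those of Msi2 and Myh1, at 1.42 and 1.33.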

How the data were processed

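RNA from 4 cultures of the ROE2 line (500 ng each, RNA integrity 9.5 to 10 per the labels) was measured on 1 array per day. The authors deposited log2 values per probe set, made with RMA per the submitters' processing notes. RMA gives all arrays nearly the same distribution, so a change in total RNA is not measured. The number of arrays limits the precision. No label names the RMA software.

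Of 31099 probe sets 20832 had 1 gene symbol in the platform annotation, 436 several and 9831 none, and 20764 matched the RefSeq table (GRCr8), which changed 0 symbols. Signal over background was judged from 27 bacterial control probe sets, at most 4.19 to 4.56 on the 4 arrays. Folds against a value at or below these are lower bounds. The 18 hybridisation spike-ins rose by a median of 0.63 by day 9.

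The members, gene lists and role groups were chosen with earlier results of these data known. Members given with their values were, by rule, the 20 largest differences on day 9, the extremes on day 6 and between days 6 and 9, the 10 brightest, members of the fixed lists and those with a discordant probe set. Others were added after their values were seen. The result of 1 gene list is not reported here. The member rule was tested on simulated data. Floors, probe set choice, centring, thresholds and the day 3 window were varied. Python 3.11.15, numpy 2.4.6, pandas 2.3.3 and matplotlib 3.10.9 were used.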

Additional observations from a re-analysis of the deposited data

How the results depend on the processing

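The number of late-lowered genes, 215 in the reported setting, was 121 with a floor of 8, 1608 after centring on the spike-ins, 1028 and 24 with day 9 thresholds of 1.5-fold and 3-fold, and 84 and 374 with day 3 windows of 1.2-fold and 2-fold. The other settings gave 151 to 242. Among the genes chosen anew under each setting, the number at least 2-fold lower on day 6, 107 as reported, was 62, 615, 173, 21, 23 and 243 under those settings in the same order. It was 61 with arrays centred on the median gene. Of the 215 members themselves, 185 were at least 2-fold lower on day 6 with spike-in centring and 65 with median gene centring. The median day 6 difference of the genes so chosen, -1.00 as reported, was -0.99 with no floor, -1.01 with a floor of 8, -0.93 with either centring, -0.96 after a further quantile normalization, -0.71 and -1.39 with the 2 day 9 thresholds and -0.80 and -1.13 with the 2 windows. The thresholds and windows change the count by their construction. For the centrings the cause was not tested. No paired analysis was possible because each day has 1 array, and no array could be left out. Members near the controls on day 9 have a bound only.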

Other observations

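Besides C1r and C1s, 3 pairs of late-lowered genes lie next to each other in the RefSeq order of coding genes, among 206 members with a place in it. These are Epb41l2 and Akap7, at -1.12 and -1.89 on day 9, Tpd52l1 and Hddc2, at -2.21 and -1.27, and Pml and Stoml1, at -1.21 and -1.05. No share of such pairs over all measured genes is given beside them, so nothing is read from their number. Probe sets with no symbol or several, are left out of the gene table. Of 2670 such probe sets at 6 or more, 122 (4.57%) met both day thresholds, which 231 of the 8802 genes met before symbols were left out. On day 6, which the thresholds did not use, the median of the 122 was -0.87 and 48 of them were at least 2-fold lower, where the 215 members had a median of -1.00 and 107 at least 2-fold lower. Both sets were picked by the same thresholds and share the day 0 array. No day 6 share over all 2670 probe sets is given, so nothing is read from these counts.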
